A study of Mus musculus with 6 samples.

Results

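Fibroblasts make few interleukins, and 10 genes for interleukins and their receptor chains were described here in WT MEFs (mouse embryonic fibroblasts). The genes were *Il6*, *Il11*, *Il33*, *Il15*, *Il7* and *Il18* among the ligands and *Il1rl1*, *Il15ra*, *Il6st* and *Il4ra* among the receptors. They were found by name among the 51499 loci of the deposited count table, where each had a locus of its own, and all 10 were among the 14499 loci that passed the count filter. The set was chosen in part by the strong fall of *Il33* after knockdown in these same libraries, so the differences of the 10 genes between the groups are given as descriptions. Whether a gene passed the threshold used for all loci (called) is stated as part of that description, without a p and not as a test of these 10 genes.

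The cells were transfected with a scrambled siRNA (Scr) or with siRNA against *Yme1l*, which encodes a protease of the mitochondrial inner membrane, and were collected 72 h later. The comparison asks how the transcriptome responds to an acute loss of this protease. Each group had 3 libraries, and the libraries held between 37260605 and 45205207 counts. All libraries came from one WT line. According to the methods, WT MEFs were expanded as individual clones from *Yme1l* loxP/loxP animals after transduction with Cre recombinase and kept the floxed alleles. The labels name 3T3 immortalization, whereas the methods name SV40 large T antigen. The spread between the 3 libraries of a group is therefore the spread between cultures of one line, not between animals, and nothing in the labels says whether the cultures were grown on separate days.

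Interleukins are secreted signalling proteins that act mostly on immune cells. IL-6 and IL-11 first bind their own receptor chain and then signal through the shared chain gp130, encoded by *Il6st*, to Janus kinases and STAT3. IL-33 and IL-18 belong to the IL-1 family. IL-33 is stored in the nucleus of stromal and epithelial cells, is released when cells are damaged and is recognised by ST2, encoded by *Il1rl1*, whereas IL-18 is made as a precursor that caspase-1 cleaves. IL-15 and IL-7 sustain lymphocytes. IL-15 is usually carried to the cell surface by its own receptor chain IL-15Rα, and the IL-4 receptor α chain pairs with either the common γ chain or IL-13Rα1.

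The knockdown was read first from *Yme1l1*, the gene symbol of *Yme1l*. Its level, given in CPM (counts scaled to the size of the library), was 170, 171 and 171 CPM in the Scr libraries and 31.6, 23.4 and 45.0 CPM in the *Yme1l* siRNA libraries. The log2 fold change was −2.36 with a standard error (SE) of 0.20, and edgeR's quasi-likelihood test gave an adjusted p of 3.87e-05. *Yme1l* siRNA replicate 3 retained the most *Yme1l1* RNA. The same library had the lowest level of its group for 8 of the 10 interleukin and receptor genes, whereas 38.5% of all loci tested were lowest there. These 8 included *Il33* and *Il7*, which were lower after knockdown. Among the Scr libraries, replicate 3 was lowest for 6 of the 10 genes and for 39.3% of all loci. A link of this order to the remaining *Yme1l1* RNA was not tested.

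The knockdown was followed by changes across much of the transcriptome. At an adjusted p under 0.05, 58.0% of the loci tested were called, with 28.4% called higher and 29.6% called lower after knockdown, and in 65.4% the 3 libraries of one group did not overlap with those of the other. As a description, 8 of the 10 genes were called, 5 higher and 3 lower, and the groups of the same 8 did not overlap. Because the set was chosen on this contrast, nothing is read from these counts against the shares over all loci. The median log2 fold change of the 10 genes was 0.49, beside 0.01 over all loci tested, and it turned to −0.15 with a filter at a mean of 50 counts, which leaves out *Il6* and *Il11*. *Il6*, one of the 5 called higher, passed the count filter only through the *Yme1l* siRNA libraries, whereas the other 9 genes reached its minimum of 0.238 CPM in all 6 libraries.

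**Figure D1:**
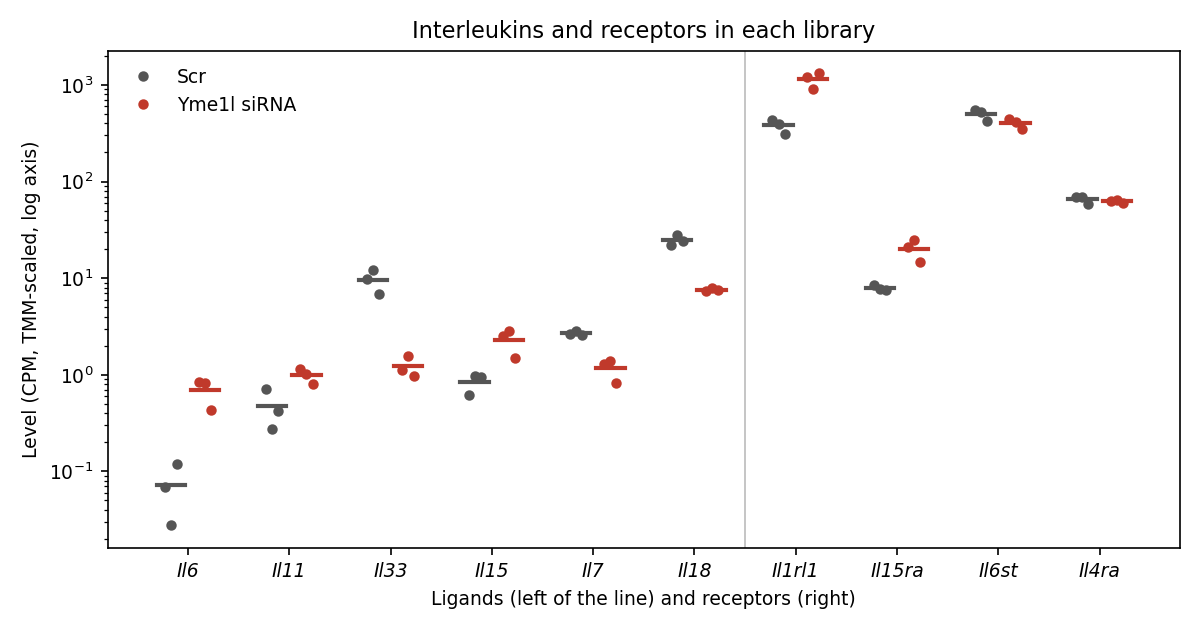
Level of each of the 10 genes in each library, in CPM on a log axis, with each library as a point, Scr and *Yme1l* siRNA side by side, and the mean of each group as a short line. The groups lie apart for 8 genes and overlap for *Il6st* and *Il4ra*, and levels run from 0.0277 CPM for *Il6* in a Scr library to 1319 CPM for *Il1rl1* after knockdown.

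*Il33* had the largest decrease among the ligands. Its level was 9.70, 12.0 and 6.85 CPM in the Scr libraries and 1.13, 1.56 and 0.973 CPM in the *Yme1l* siRNA libraries. Every library with knockdown lay far below every Scr library, and the fitted level was 7.77-fold lower (log2 fold change −2.96, SE 0.26). Leaving out any one library moved the log2 fold change between −3.17 and −2.76. The gene lies at chr19:29925114-29960718 on the forward strand (GRCm38, the build also called mm10, with GENCODE M21 annotation), where 5 transcripts are annotated.

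*Il18* was also lower after knockdown, and its libraries agreed closely. It was at 22.1, 28.0 and 24.1 CPM in the Scr libraries and at 7.44, 7.85 and 7.62 CPM in the *Yme1l* siRNA libraries. The log2 fold change was −1.69 (SE 0.11), and it stayed between −1.77 and −1.60 when any one library was left out. *Il18* lies at chr9:50554827-50581840. *Il33* and *Il18*, the IL-1 family ligands of the set, were thus both lower in all 3 *Yme1l* siRNA libraries than in any Scr library.

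*Il7*, a survival factor for lymphocytes made by stromal cells, was lower as well. Its level was 2.63, 2.85 and 2.58 CPM in the Scr libraries and 1.29, 1.40 and 0.831 CPM after knockdown, with a log2 fold change of −1.19 (SE 0.23). The 3 Scr libraries differed little among themselves, and the groups did not overlap. *Il7* lies on the reverse strand at chr3:7569994-7613760, where the annotated antisense gene *Gm16685* overlaps its exons. The strand setting of the counting is not given in the sources used here, so reads from *Il7* and *Gm16685* cannot be told apart.

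*Il15* was higher after knockdown. Its level was 0.624, 0.970 and 0.948 CPM in the Scr libraries and 2.50, 2.83 and 1.50 CPM in the *Yme1l* siRNA libraries. The groups lay apart although replicate 3 was the lowest of the knockdown libraries, and the log2 fold change was 1.43 (SE 0.30). In the authors' FPKM values, which combine the libraries of a group, *Il15* was at 1.84 in Scr cells and 2.52 after knockdown. That rise is smaller than the 2.69-fold difference fitted to the counts. *Il15* lies at chr8:82331632-82403222. Its receptor chain *Il15ra* (chr2:11705290-11734317) moved in the same direction, and its values follow with the receptors.

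*Il6* and *Il11*, the ligands that share gp130, were both close to the lower limit of detection. *Il6* (chr5:30013114-30019981) was read 3, 1 and 5 times in the Scr libraries and 37, 36 and 18 times in the *Yme1l* siRNA libraries. In CPM these were 0.0693, 0.0277 and 0.119 against 0.834, 0.828 and 0.427. Every knockdown library was above every Scr library, but the Scr level rests on 9 counts in all. The fitted log2 fold change of 3.19 (SE 0.50) depends on the prior count that edgeR adds. The ratio of the summed counts, scaled for library size, was 9.46 with an exact 95% interval from 4.77 to 21.3, which covers counting error only.

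In the Scr libraries *Il11* had counts of 31, 10 and 18, and 51, 44 and 34 after knockdown, equal to 0.716, 0.277 and 0.427 CPM against 1.15, 1.01 and 0.807 CPM. The lowest knockdown library was only slightly above the highest Scr library. The log2 fold change was 1.04 (SE 0.35), and the gene was no longer called in 4 of the 6 fits that left out one library, those without Scr replicate 2 or 3 or *Yme1l* siRNA replicate 1 or 2, with values between 0.78 and 1.47. *Il11* lies on the reverse strand at chr7:4772373-4782859.

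Promoter sequences are shown for *Il6*, *Il11* and *Il15ra*, in which a match to the AP-1 motif was found. *Il1rl1*, which was also higher after knockdown, had no match in either of its 2 promoters. RefSeq promoters, which run from 250 bases before to 50 bases after a transcript's start on GRCm38.p6, matched 8 of the 10 genes with 12 promoters. *Il15* and *Il7* had no entry. AP-1 sites, bound by Fos and Jun proteins, were searched as TGANTCA, which reads the same on both strands. They were found in 3 of the 12 promoters, one each of *Il6*, *Il11* and *Il15ra*, and in 7.81% of the 32851 promoters of the table. The windows around these AP-1 matches and around an NF-kB match near the *Il6* start are shown 5′ to 3′ on the strand of the gene, with the match in capitals.
Il6, AP-1: cTGAGTCActtttaaagaaaaaaaagaaga
Il11, AP-1: aggagggagggTGAGTCAggatgtgtcagg
Il15ra, AP-1: ggtggggatgcTGAGTCAcagatctgtcac
Il6, NF-kB: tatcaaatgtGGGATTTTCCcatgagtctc

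The AP-1 windows lie at chr5:30012864-30012893 for *Il6*, at chr7:4778221-4778250 for *Il11* and at chr2:11705671-11705700 for *Il15ra*, and the first base of the match was 249, 98 and 30 bases before the start, respectively. For *Il11* the match was in the promoter of the inner of its 2 annotated starts. NF-kB sites, bound by the Rel family of factors, were searched as 3 G bases, 5 free bases and 2 C bases on either strand. They were found in 5 promoters, those of *Il6*, *Il11*, *Il15ra*, *Il4ra* and *Il6st*, but this loose motif is also in 50.8% of all promoters. In *Il6* the match shown (chr5:30013060-30013089) overlaps a further match on the other strand that is shifted by 1 base. The interferon-stimulated response element, searched by its core of GAAA repeats, the STAT motif GAS, searched as TTCNNNGAA, and the cAMP response element TGACGTCA were each found in 0 of the 12 promoters, and in 3.44%, 8.30% and 1.79% of all promoters. These matches describe the letters in a short window, and no binding was measured.

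Among the receptors, *Il1rl1* combined a high level with a large increase. Its level was 436, 399 and 308 CPM in the Scr libraries and 1208, 902 and 1319 CPM in the *Yme1l* siRNA libraries, a 3.00-fold difference (log2 fold change 1.59, SE 0.17). The lowest knockdown library was at more than 2 times the level of the highest Scr library. *Il1rl1* was the only one of the 10 genes for which *Yme1l* siRNA replicate 3 was the highest of its group. The gene lies at chr1:40429570-40465415 with 5 annotated transcripts and 2 starts in the RefSeq promoters. It is known to give a membrane receptor and a secreted form that binds IL-33 without signalling, and the counts are summed over the locus, so these forms were not separated.

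The ligand and the receptor of the IL-33 pathway thus differed in opposite directions between the groups. *Il33* had 289 to 434 counts per Scr library and 41 to 68 per knockdown library, whereas *Il1rl1* had 12987 to 18876 and 39224 to 55574. RNA of the ligand was scarce beside that of the receptor in both groups. Per kilobase of merged exon, *Il1rl1* was at 55.2 CPM and *Il33* at 3.30 CPM in Scr libraries, and at 166 CPM and 0.423 CPM after knockdown.

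*Il15ra*, which presents IL-15 to neighbouring cells, was at 8.52, 7.76 and 7.58 CPM in the Scr libraries and at 21.0, 25.1 and 14.5 CPM after knockdown. The log2 fold change was 1.34 (SE 0.18), and the groups did not overlap. The order of the 3 knockdown libraries was the same for *Il15* and *Il15ra*, with replicate 2 the highest and replicate 3 the lowest. *Il33*, *Il7* and *Il4ra* had this order too, so it is not particular to the IL-15 pair. Per kilobase, the pair stayed modest, with *Il15* at 0.375 CPM and *Il15ra* at 1.79 CPM in Scr libraries and at 1.01 and 4.55 CPM after knockdown.

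The shared signalling chains *Il6st* and *Il4ra* were the 2 genes that were not called. *Il6st* was at 550, 521 and 419 CPM in the Scr libraries and at 447, 413 and 350 CPM after knockdown (log2 fold change −0.30, SE 0.12). The groups overlapped through Scr replicate 3, and without that library the log2 fold change was −0.41 and the gene was called. *Il4ra* was at 69.0, 68.8 and 59.1 CPM against 62.4, 64.3 and 60.5 CPM, with a log2 fold change of −0.07 (SE 0.08), the smallest of the 10. *Il6st* lies at chr13:112464070-112510086 and *Il4ra* at chr7:125552120-125579474, where the antisense gene *Gm44876* overlaps its exons and its reads cannot be told apart from those of *Il4ra*.

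**Figure D2:**
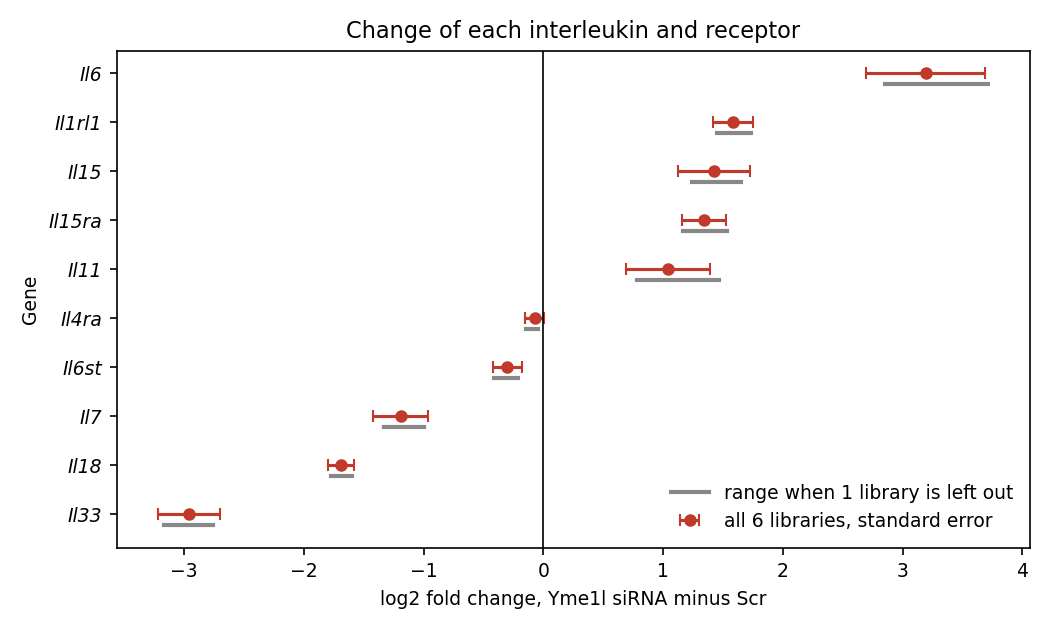
Log2 fold change of the 10 genes after *Yme1l* knockdown, as points with bars of 1 SE, and the range over the 6 fits that each left out one library. *Il6* has the largest positive and *Il33* the largest negative value (3.19 and −2.96), and the value of *Il4ra* (−0.07) lies within 1 SE of 0.

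The order of the genes by level was read per kilobase of merged exon, since longer transcripts gather more counts. In the Scr libraries *Il1rl1* came first at 55.2 CPM per kilobase, followed by *Il6st* at 44.7, but their libraries overlapped. *Il18* (24.0), *Il4ra* (10.9), *Il33* (3.30), *Il15ra* (1.79), *Il7* (0.475) and *Il15* (0.375) followed in CPM per kilobase. *Il11* (0.227) overlapped with *Il15*, and *Il6* was the lowest at 0.0296 CPM per kilobase. Receptor chains thus held the first and second places, and the ligand *Il18* came before the receptor *Il4ra*.

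After knockdown the order changed below the second place. *Il1rl1* (166) and *Il6st* (36.3) were followed by *Il4ra* (10.4), *Il18* (7.40), *Il15ra* (4.55) and *Il15* (1.01), each in CPM per kilobase, and these 6 did not overlap with their neighbours. The last 4 places were held by *Il11* (0.476), *Il33* (0.423), *Il6* (0.287) and *Il7* (0.207), and each of these neighbours overlapped. *Il33* moved from the fifth place to the eighth. In the authors' FPKM values, which combine the libraries of a group, *Il1rl1* was at 136 in Scr cells and 422 after knockdown, rank 664 of 21382 and rank 188 of 22460 among the genes with a value above 0. The places of the 10 genes by FPKM were the same as by CPM per kilobase for 6 genes in Scr cells and for 4 after knockdown.

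*Il1rl1* lies in a cluster of IL-1 receptor genes on chromosome 1, in the order *Il1r2*, *Il1r1*, *Il1rl2*, *Il1rl1*, *Il18r1* and *Il18rap*. All 6 are on the forward strand, and *Il18r1* starts at position 40465552, directly behind the annotated end of *Il1rl1* at 40465415. *Il18r1*, which encodes the IL-18 binding chain, was read 4, 0 and 1 times in Scr libraries and 40, 40 and 21 times after knockdown. The ratio of its summed counts, scaled for library size, was 18.9 (exact 95% interval 7.84 to 59.5, counting error only), and the fitted log2 fold change was 4.15 (SE 0.63), or 5.62 without Scr replicate 1. *Il18r1* passed the count filter only through the *Yme1l* siRNA libraries, so it had to differ, and its call is a description. How many of these counts come from transcripts that run on from *Il1rl1* was not tested.

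The other genes of the cluster moved less or had too few counts for a test. *Il1r1*, the receptor of IL-1, rose (log2 fold change 0.40, SE 0.10, adjusted p = 0.00792 in edgeR's quasi-likelihood test). *Il18rap*, the signalling chain for IL-18, was at 4.48, 5.27 and 4.79 CPM against 6.63, 7.68 and 4.25 CPM and was not called (log2 fold change 0.35, SE 0.21, edgeR adjusted p = 0.185), but without *Yme1l* siRNA replicate 3 its log2 fold change was 0.56 and it was called. The IL-1 decoy receptor *Il1r2* had at most 4 counts and *Il1rl2* at most 3 counts in any library.

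Of 13 receptor chains that work with the 10 genes 12 were tested, 3 were called higher, 4 lower and 5 were not called, beside 28.4% higher and 29.6% lower over all loci. These shares are close to the background, and the median log2 fold change was −0.05, beside 0.01 over all loci. Of the 3 called higher, *Il18r1* and the locus of *Il2rg* passed the count filter only through the *Yme1l* siRNA libraries. For the gp130 ligands, *Il6ra* rose from 17.3, 14.9 and 18.8 CPM to 27.8, 32.2 and 20.1 CPM (log2 fold change 0.65, SE 0.17, edgeR adjusted p = 0.00962). *Il11ra1*, the receptor chain for IL-11, fell from 45.2, 51.7 and 40.6 CPM to 19.9, 20.1 and 20.2 CPM (log2 fold change −1.19, SE 0.09, edgeR adjusted p = 2.68e-05). *Il6* and *Il6ra* were thus both higher after knockdown, whereas *Il11* and *Il11ra1* differed in opposite directions. *Lifr*, which pairs with gp130 for LIF, fell (log2 fold change −0.47, SE 0.12, edgeR adjusted p = 0.0101).

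*Il1rap*, the co-receptor that ST2 and the IL-1 receptor share, was at 53.4, 53.5 and 51.6 CPM in the Scr libraries and 60.6, 54.4 and 45.8 CPM after knockdown. It was not called, with a log2 fold change of 0.02 (SE 0.10, edgeR adjusted p = 0.865) whose sign turned when Scr replicate 3 or *Yme1l* siRNA replicate 1 was left out. The partners of the IL-4 receptor and of IL-15 differed by chain. *Il13ra1* fell from 222, 229 and 194 CPM to 93.5, 96.4 and 78.7 CPM (log2 fold change −1.26, SE 0.10, edgeR adjusted p = 2.72e-05), beside *Il4ra*, whose groups overlapped. *Il2rb*, a signalling chain for IL-15, fell (log2 fold change −0.91, SE 0.23, edgeR adjusted p = 0.0098).

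The common γ chain *Il2rg* shares a locus with *Gm20489* and *Gm614*, and their reads were not separated. That locus was read 3, 7 and 8 times in Scr libraries and 44, 67 and 40 times after knockdown. The scaled ratio was 7.85 (exact 95% interval 4.80 to 13.6, counting error only), with a fitted log2 fold change of 2.94 (SE 0.40) that is a description, as for *Il18r1*. *Il7r*, the receptor chain for IL-7, was read 0, 0 and 4 times in Scr libraries and 0 times in each library with knockdown, too few for a test.

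Of 7 decoys and inhibitors 5 were tested, and 1 was called higher, 2 lower and 2 were not called, beside 28.4% higher and 29.6% lower over all loci (2 were higher without *Yme1l* siRNA replicate 2 or 3). *Il13ra2*, a decoy for IL-13, was read 1, 0 and 4 times in Scr libraries and 23, 21 and 17 times after knockdown. The scaled ratio was 11.4 (exact 95% interval 4.63 to 36.4, counting error only), with a fitted log2 fold change of 3.42 (SE 0.61) that became 4.92 without Scr replicate 3. *Il13ra2* also passed the count filter only through the *Yme1l* siRNA libraries, so its call is a description. *Il1rn*, the IL-1 receptor antagonist, fell from 93.7, 95.3 and 56.8 CPM to 31.9, 38.6 and 18.0 CPM (log2 fold change −1.47, SE 0.28, edgeR adjusted p = 0.00222). *Tollip*, which dampens IL-1 signalling, fell (log2 fold change −0.40, SE 0.08, edgeR adjusted p = 0.0026). *Il18bp*, which neutralises IL-18, was not called (log2 fold change 0.66, SE 0.27, edgeR adjusted p = 0.0649), but without *Yme1l* siRNA replicate 3 its log2 fold change was 0.92 and it was called.

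The transducers of gp130 and the common γ chain were mostly lower, with *Jak3* measured as a locus shared with *Insl3*. Of 14 Janus kinases, STAT factors and feedback genes, 11 fell, 0 rose and 3 were not called by edgeR's quasi-likelihood test, with a median log2 fold change of −0.41, beside 29.6% of all loci called lower and a median of 0.01. At an unadjusted p under 0.05, 12 were lower and 0 higher, and DESeq2 and limma-voom also called 0 higher. The count of 11 became 7 without Scr replicate 1. *Stat3*, the factor downstream of gp130, fell from 219, 201 and 208 CPM to 78.9, 80.7 and 75.1 CPM (log2 fold change −1.42, SE 0.07, edgeR adjusted p = 5.59e-06).

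The feedback inhibitors *Socs2* (log2 fold change −1.90, SE 0.16, edgeR adjusted p = 3.87e-05) and *Cish* (−1.70, SE 0.21, adjusted p = 0.000228) had the largest decreases of that list. *Pias3*, an inhibitor of STAT3, also fell (log2 fold change −0.62, SE 0.08, edgeR adjusted p = 0.000211). *Socs3*, which blocks gp130 signalling, fell less (log2 fold change −0.48, SE 0.09, edgeR adjusted p = 0.00167). The members of the list that were lower thus included signal carriers and inhibitors alike, and the phosphorylation of STAT3 was not measured.

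Of 10 transducers of the IL-1 family, 4 rose, 1 fell and 5 were not called, beside 28.4% higher and 29.6% lower over all loci, with a median log2 fold change of 0.15. The difference from the JAK-STAT genes was not tested. *Irak4*, the kinase recruited first by the adaptor MyD88, fell from 43.0 to 21.2 CPM (log2 fold change −1.02, SE 0.11, edgeR adjusted p = 8.67e-05). *Traf6* (0.29, SE 0.07, edgeR adjusted p = 0.00778), *Myd88* (0.39, SE 0.11, adjusted p = 0.0131) and *Tab2* (0.23, SE 0.07, adjusted p = 0.0211) rose by these log2 fold changes. The increases were small, and the count of 4 became 2 without Scr replicate 2, Scr replicate 3 or *Yme1l* siRNA replicate 1, in which fits *Tab2* was not called, and 1 at an adjusted p under 0.01.

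The enzymes that release or cleave these cytokines and receptors were tested for 8 of 11 genes, and 2 rose, 2 fell and 4 were not called, beside 28.4% higher and 29.6% lower over all loci. *Adam17*, which sheds the IL-6 receptor from the cell surface, fell from 133, 130 and 142 CPM to 57.9, 51.4 and 66.3 CPM (log2 fold change −1.21, SE 0.10, edgeR adjusted p = 3.15e-05), whereas *Adam10* was not called (log2 fold change 0.05, edgeR adjusted p = 0.583). *Gsdmd*, the pore through which IL-1 family ligands leave cells, rose (log2 fold change 1.51, SE 0.32, edgeR adjusted p = 0.00361). It was scarce, with 16, 13 and 14 counts in Scr libraries and 33, 61 and 38 after knockdown. *Gsdme*, a related pore protein, rose less (log2 fold change 0.36, SE 0.09, edgeR adjusted p = 0.00729).

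The machinery that matures IL-18 was barely detected. *Casp1* had 2, 2 and 0 counts in Scr libraries and 8, 14 and 5 after knockdown, *Nlrp3* had 0, 3 and 1 against 19, 20 and 9, and *Pycard* had 0 counts in all libraries. None of these 3 genes passed the count filter. RNA for the precursor of IL-18 was therefore measured in libraries where RNA for the inflammasome was near the limit of detection.

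**Figure D3:**
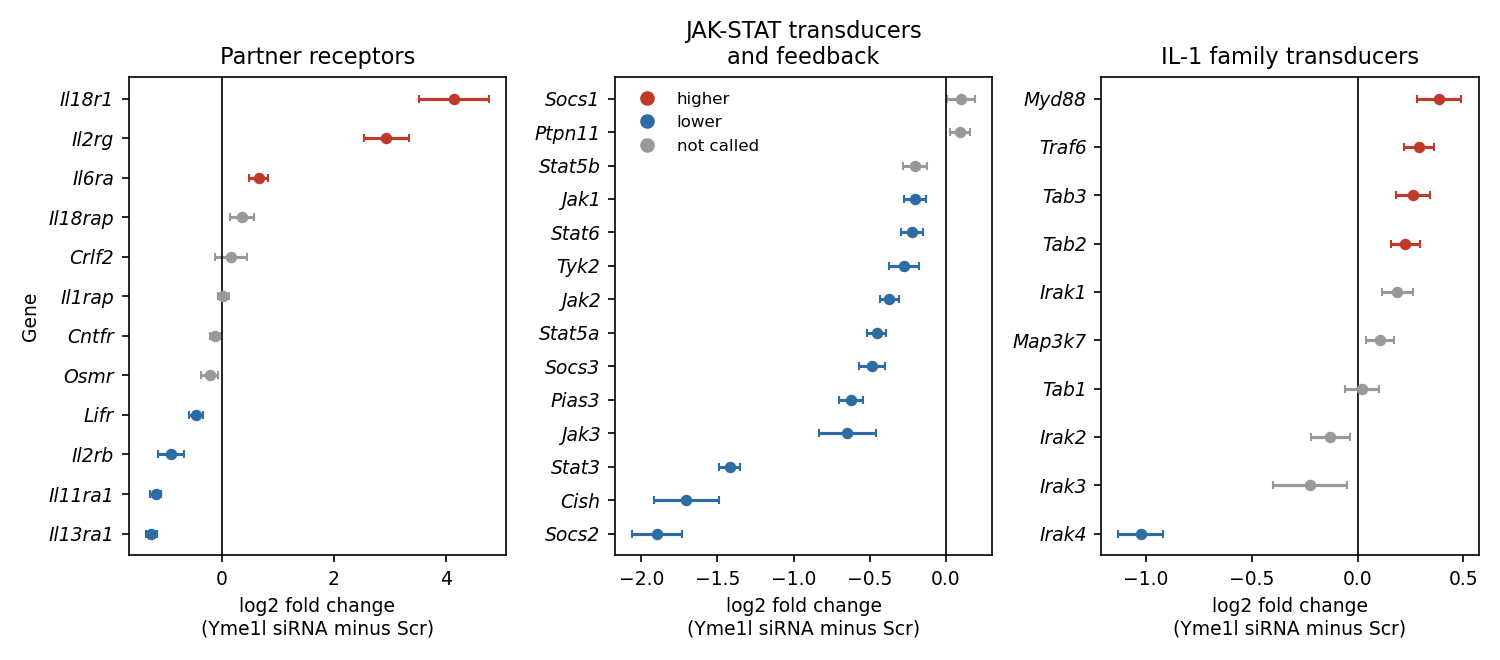
Log2 fold change of the tested partner receptors, JAK-STAT genes and IL-1 family transducers after *Yme1l* knockdown, with bars of 1 SE and separate colours for genes called higher, called lower and not called. The *Il2rg* and *Jak3* points are those of loci joined with other genes. Of the JAK-STAT genes 11 of 14 are called lower and 0 higher, whereas partner receptors lie on both sides of 0 (3 called higher, 4 lower).

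Most other cytokines of these families were absent or scarce at this depth. Of 14 further ligands of gp130 or of the common γ chain family, 9 had at most 3 counts in every library, 5 of them 0, and 4 were tested. Of these 1 rose, 2 fell and 1 was not called, beside the same 28.4% and 29.6% of all loci, and 2 rose without *Yme1l* siRNA replicate 3 or any one of the Scr libraries. *Lif*, a gp130 ligand, rose from 40.3 to 59.1 CPM (log2 fold change 0.55, SE 0.07, edgeR adjusted p = 0.000317), and *Ctf1*, another, fell (log2 fold change −0.70, SE 0.13, edgeR adjusted p = 0.00171). The locus of *Cntf* also holds *Zfp91*, and its decrease (log2 fold change −0.39) cannot be assigned to either. *Tslp*, which calls on a receptor related to that of IL-7, had 3, 1 and 1 counts against 12, 28 and 8, too few for the count filter.

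Of the 19 remaining interleukins that had a locus, 11 had at most 3 counts in every library and 2, *Il16* and *Il34*, were tested. By edgeR's quasi-likelihood test 0 were called, and 0 had an unadjusted p under 0.05 or were called by DESeq2 or limma-voom. Of 21 other interleukin receptors 10 were tested, 6 rose and 1 fell, beside 28.4% higher and 29.6% lower over all loci. The IL-17 receptor chains *Il17rc* (log2 fold change 0.76, SE 0.07, edgeR adjusted p = 5.5e-05) and *Il17rd* (−1.23, SE 0.18, adjusted p = 0.000495) differed in direction. *Il31ra*, a relative of gp130, rose (log2 fold change 0.71, SE 0.15, edgeR adjusted p = 0.00358), as did the locus that *Il10rb* shares with *Ifnar2* and *Gm21970* (log2 fold change 0.47, edgeR adjusted p = 0.00488).

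The loci whose pattern over the 6 libraries was most like that of *Il33* were found among 11515 loci by the root mean square difference of log2 CPM, centred on the mean of each locus. They were *Adamts2* (0.189), *Tgfbi* (0.220), *Nrep* (0.229), *Rnft2* (0.242) and *Sgk3* (0.243), in log2 units. *Adamts2*, which trims procollagen, was at 74.1, 69.8 and 52.7 CPM in Scr libraries and 10.3, 13.0 and 7.02 CPM after knockdown. *Tgfbi*, an extracellular matrix protein, was at 3116, 3129 and 2811 CPM against 573, 593 and 550 CPM. These loci were picked for their likeness over 6 libraries that share one contrast, so their log2 fold changes, between −3.06 and −2.37, are descriptions as well.

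Markers of cell types were read in the same libraries. Of 8 fibroblast markers 7 were tested, 6 fell and 0 rose by edgeR's quasi-likelihood test, beside 29.6% lower and 28.4% higher over all loci. *Vim* was not called (mean 3546 CPM in Scr and 3102 CPM in knockdown libraries), and *Thy1* had at most 1 count per library. The summed level of the 8 markers was 33446 to 40597 CPM in the Scr libraries and 17963 to 22398 CPM after knockdown. Most of this sum came from the matrix genes *Col1a1*, *Fn1*, *Col1a2* and *Col3a1*. The label of fibroblasts was thus met in both groups, with a lower summed level after knockdown. Of 10 leukocyte markers 7 had at most 3 counts in every library, among them *Ptprc*, and *Cd3e*, *Adgre1* and *Fcer1a* were at 0. The summed leukocyte level of 163 to 180 CPM in Scr and 242 to 255 CPM in knockdown libraries came from *Csf1r*, *Cd68* and *Lyz2*, and *Csf1r* rose (log2 fold change 0.74).

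Endothelial markers summed to 3.79 to 4.08 CPM and 5.68 to 7.81 CPM, with *Cldn5* at 0 in all libraries. *Tek* rose, and *Kdr*, called higher, had 3, 9 and 7 counts against 43, 43 and 38. *Kdr* passed the count filter only through the *Yme1l* siRNA libraries, so its call is a description. Epithelial markers summed to at most 0.529 CPM. The part of these marker levels in the differences of *Il33*, *Il1rl1* and the other genes was not tested. In bulk RNA, fewer cells that express a gene and less RNA per cell cannot be told apart.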

How the data were processed

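RNA-Seq was performed on WT MEFs 72 h after transfection, in 3 libraries per siRNA. The authors mapped paired-end reads of stranded, poly(A)-selected libraries to GRCm38 with HISAT2 2.0.4, assembled transcripts with StringTie 1.3.3 and compared groups with Cuffdiff 2.2.1, according to the methods and the submitters' processing notes. The deposited table holds raw counts per locus without normalization, and the counting program and its strand setting are not given in the sources used here. A locus can join several genes (635 of 51499 loci), whose reads are then summed. The second table of the authors holds FPKM per group, which were used only for ranks and for levels of *Il1rl1* and *Il15*. It also holds the fold changes, test statistics, p-values and q-values of their comparison, which were not used.

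Counts were analysed with edgeR 4.0.16 in R 4.3.3, with TMM scaling, filterByExpr (a minimum of 10 counts, 15 in total) and the quasi-likelihood test between the siRNA groups, with Benjamini-Hochberg adjustment over 14499 loci at 0.05. The SE was derived from the log2 fold change and its F statistic. The biological coefficient of variation was 0.131. Replicates differed by more than counting noise (chi-square per degree of freedom 10.4 to 75.5), so none was a copy. p-values measure the spread between cultures of one line. Intervals of count ratios are exact and cover counting error only. Genes were named by rule: the 10 genes and *Yme1l1*, from each list up to 4 called genes ranked by adjusted p, genes whose role pairs with one of the 10, and the 5 loci most like *Il33* among loci at or above a mean log2 CPM of 1, after adding 0.5 CPM. Genes with too few counts for a test and cell type markers are named beyond this rule. Some list genes are counted but not reported here by name. The 10 genes and the lists were chosen with earlier results of these data known. Gene positions came from GENCODE M21. All columns of libraries were mapped to samples, and 0 were left out.

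Alternatives were DESeq2 1.42.0, limma-voom (limma 3.58.1), other scalings, filters and thresholds, a replicate block and leaving out each library. The edgeR, DESeq2 and limma-voom fits were tested on simulated data with 200 genes changed by 2-fold. The other scalings and filters, the block and the fits without a library were not simulated. In the real data 58.0% of the loci were called, and the scaling was not tested under changes that broad. In the simulation DESeq2 made more false calls than was first allowed. Its limit was loosened after that was seen, so its calls are alternatives only. Tables and figures were made with Python 3.11.15, pandas 2.3.3, numpy 2.4.6, scipy 1.17.1 and matplotlib 3.10.9.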

Additional observations from a re-analysis of the deposited data

How the results depend on the processing

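Over 47 named genes and their alternatives, 631 of 652 values kept their direction and side of the threshold, 11 lost and 8 gained a call, and 2 changed direction, both of *Il1rap*, which was not called and had a log2 fold change just below 0 when Scr replicate 3 was left out, in a range from −0.075, when *Yme1l* siRNA replicate 1 was, up to 0.12. Other scalings moved the median of all loci by at most 0.02 on the log2 scale. With a filter at a mean of 50 counts, *Il6* and *Il11* were not fitted, so 3 of the 10 genes were called higher and their median log2 fold change was −0.15, and 1 partner receptor, 0 decoys and 1 protease or export gene were called higher. With every locus of at least 1 count fitted, 2 decoys, 2 further gp130 or common γ chain ligands, 1 other interleukin, 2 IL-1 family transducers and 4 protease or export genes were called higher. DESeq2 called 2 decoys higher. At an adjusted p under 0.01, 7 JAK-STAT genes were called lower and 1 IL-1 family transducer higher. By FPKM, 6 genes in Scr cells and 4 after knockdown kept their place, and in the 250 bases before the start the NF-kB motif was in 3 promoters. Leaving out one library gave 1 to 2 decoys higher, 1 to 2 further ligands higher, 7 to 10 JAK-STAT genes lower, 2 to 5 IL-1 family transducers higher, 4 to 5 of the 10 genes higher and 3 to 4 lower, with a median of 0.37 to 0.60.

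Depth limits *Il6*, *Il11*, *Il18r1*, *Il13ra2*, the locus of *Il2rg*, *Gsdmd* and *Kdr*, each with under 60 summed counts in the Scr libraries. Whether the replicate numbers pair the samples is not known, and the main fit used no block. To look for pairs, the deviation of each library from the mean of its group, in log2 CPM over the loci tested, was correlated between groups. These deviations correlated at 0.09, 0.17 and 0.25 between same-numbered libraries. By this measure each *Yme1l* siRNA library correlated best with the Scr library of its own number. Deviations within a group cancel, so these values are not independent, and they are not correlations of the levels themselves. Scr replicate 1, however, correlated best with *Yme1l* siRNA replicate 2 (0.14). With the replicate number as a block, 4227 loci were called higher and 4460 lower, 5 of the 10 genes higher and 4 lower, and *Il6st* was called (log2 fold change −0.30), as it was by DESeq2 and with every locus of at least 1 count fitted.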
